A study of Rattus norvegicus with 4 samples.

Results

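The Rab GTPases form the largest branch of the small GTPases and were taken here as every gene with a Rab symbol made of a number and at most a letter from a to d. A probe set, the group of short probes that reports on a transcript, counted only where the platform annotation names a single gene. By this rule 56 Rab genes were measured of 14217 genes named on the arrays, by 97 probe sets, and each gene was represented by its brightest probe set. The genes Rab3a to Rab3d, Rab26, Rab27a, Rab27b and Rab37, known as secretory Rabs, were set apart as 8 genes from the other 48. Total RNA of rat adrenal medulla was hybridised to 4 single-colour arrays, 2 of rats without stress and 2 of rats that had been immobilized for 2 h, a standard form of restraint stress. Strain, sex and age of the animals, and whether an array stands for an animal or a pool, are not given in the sources used here. The p-values therefore rest on the spread among the 4 samples, and that spread may be technical. The test also borrows variance from the other probe sets, so a standard error (SE) below is not a gene's own spread alone. The question put to the Rab genes is which of them differ in level after immobilization.

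Rab proteins are switches that sit on the outer face of a membrane while they hold GTP and return to the cytosol when they hold GDP. Exchange factors load them with GTP, GTPase-activating proteins turn them off, and effectors bind the loaded form to tether, move or fuse the vesicle. In chromaffin cells, which store adrenaline and noradrenaline in dense-core granules, Rab3 and Rab27 proteins are known for their part in granule docking and release.

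The median intensity was lower in both immobilized arrays (864, 827) than in either unstressed array (955, 911). The defining chromaffin genes Th, Dbh and Chga read between 39919.7 and 68379 over the 4 arrays, and the summed intensity of the 9 measured chromaffin markers was 281391 to 309536 without stress and 276625 to 385158 with it. RNA of the adrenal cortex was present as well. The 7 measured cortical markers summed to 269751 to 310760 in unstressed and 241042 to 318815 in immobilized arrays, and none of them read 257 or less, the highest reading of the 27 Bacillus controls that serve here as a background. Of the chromaffin markers 8 of 9 lay above 0 and 1 rose, Slc18a2, the vesicular monoamine transporter, which read 3301 and 2314 without stress and 7997 and 7683 after immobilization (log2 difference 1.5 ± 0.19, adjusted p = 0.00209). Pnmt and Cartpt were higher on both immobilized arrays, at 0.36 and 0.61, and did not pass. Of the 7 cortical markers 2 rose and 0 fell, but 4 lay below 0 and 3 above. Their median was -0.24, against 0.09 for the chromaffin markers. Of the Schwann and sustentacular markers 1 rose and 1 fell, and 1 endothelial marker fell. None of the 7 macrophage and leukocyte markers or the 6 fibroblast markers passed the test. Fewer cells of a type and less RNA per cell cannot be told apart in such tissue RNA, and the part of other cell types in the results below was not tested.

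Of the 56 Rab genes, 46 passed the filter on dim probe sets and 10 did not. Among the 46, 6 rose, 9 fell and 31 were not called. The test is limma's moderated one, and a call needs a Benjamini-Hochberg adjusted p under 0.05, with the adjustment made over every probe set tested. That is 32.6% of the Rab genes, against 33.0% of all 10320 genes tested with 1 probe set each, so the share of Rab genes past the threshold was that of the background. Rises made up 11.2% and falls 21.8% of all genes. The median log2 difference, immobilized minus unstressed, was -0.12 for the Rab genes and -0.14 for all genes. Under quantile normalization the median was -0.19 for the Rab genes and -0.06 for all tested probe sets, against -0.12 for both as deposited, and these medians were not tested against each other. Of the Rab genes 4, Rab3c, Rab9a, Rab33a and Rab23, differed by at least 1 on the log2 scale, that is 2-fold, as did 13.9% of all genes. The groups did not overlap for 34 of the 46, or 73.9%, against 69.7% of all genes; both immobilized arrays were higher for 13 of them and lower for 21, as they were for 24.1% and 45.6% of all genes. Of the 15 calls, those on Rab3c and Rab33a were kept with each of the 4 arrays left out in turn.

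The secretory Rabs that were called moved in opposite directions, and of their calls only that on Rab3c held under every alternative that was run. Rab3c, a vesicle-bound Rab3 form of neurons and neuroendocrine cells, rose 3.03-fold, while Rab3a, the main Rab3 of synaptic vesicles, and Rab3d, known from the granules of exocrine and endocrine cells, fell. Rab3c read 2639 and 1755 without stress and 6948 and 6187 after immobilization. Both immobilized readings lay well above both unstressed ones. The log2 difference was 1.6 ± 0.21 (SE, n = 2 per group; 95% interval 1.10 to 2.10, adjusted p = 0.00259), the largest difference among the 46 tested Rab genes.

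Rab3a read 4697 and 3355 without stress, then 2452 and 2212. The groups did not overlap, although the unstressed pair was far apart. The log2 difference was -0.77 ± 0.20, or 1.70-fold lower (adjusted p = 0.0273), and its second, dimmer probe set gave -0.89. The call was lost without unstressed 1 (-0.52, adjusted p = 0.0535), immobilized 1 (adjusted p = 0.117) or immobilized 2 (adjusted p = 0.177). Rab3d read 3699 and 3650, then 2803 and 2226 after immobilization, with both immobilized arrays lower. Its log2 difference of -0.55 ± 0.17 lay just past the threshold (adjusted p = 0.0467). Leaving out any of the arrays took it off, with adjusted p from 0.0544 to 0.269, as did quantile normalization (adjusted p = 0.104) and centring each array on its median (adjusted p = 0.11).

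Rab3b, another Rab3 form of neuroendocrine cells, read 13992 and 8890 in unstressed and 19263 and 14865 in immobilized arrays. The immobilized readings were both higher, but unstressed 1 lay close to immobilized 2. The log2 difference of 0.60 ± 0.23 did not pass (adjusted p = 0.0946), though it did after median centring (0.74, adjusted p = 0.0317) and without unstressed 1 (0.93, adjusted p = 0.00384). Among the 4 Rab3 genes, then, 1 rose, 2 fell and 1 did not pass; the differences between them were not tested against each other.

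Rab27a, which recruits granules to the cell cortex, read 8602 and 5620 against 6554 and 6581. The immobilized readings lay between the unstressed ones, and the log2 difference was -0.08 ± 0.20 (95% interval -0.56 to 0.40, adjusted p = 0.79). Its dimmer probe sets gave -0.34 and -0.46 and did not pass either. The remaining 3 secretory Rabs were too dim to be tested. Rab27b, the close relative of Rab27a, read 473 and 437 against 372 and 395, and a still dimmer probe set went the other way, with 275 and 217 against 654 and 428. Rab26, a Rab of secretory and synaptic vesicles, read 348 and 286 against 248 and 236. The readings of Rab37, at 140 and 25.3 against 76.9 and 111, all were no higher than those controls reach, and no level can be given for it.

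**Figure D1:**
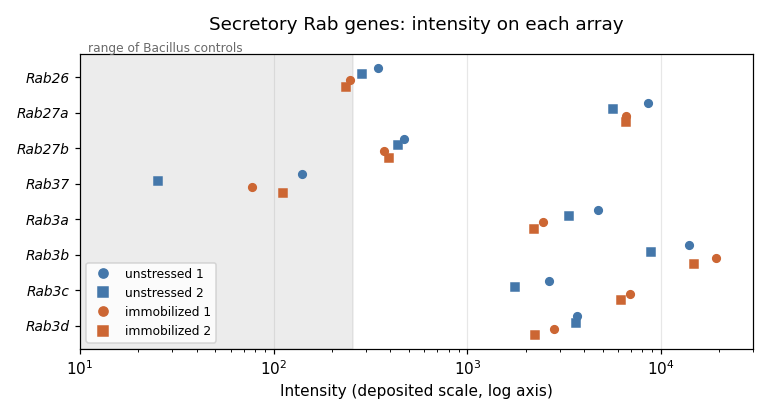
Intensity of the 8 secretory Rab genes on each array (log axis), with circles for the first and squares for the second array of a group, blue for unstressed and orange for immobilized, and the range of the Bacillus controls in grey. Rab3c is higher on both immobilized arrays, Rab3a and Rab3d are lower, and the 4 readings of Rab37 lie in the grey range.

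The promoters of Rab3c and Rab3a are shown because these paralogs were called in opposite directions, although the call on Rab3a did not hold under every alternative. Each line is the 250 bases before the RefSeq start, 5′ to 3′ on the gene's strand (GRCr8, minus strand for both; Rab3c at chr2:43575944-43576193, Rab3a at chr16:18722274-18722523), and capitals mark a match to any of the motifs named with the promoters below.
Rab3c: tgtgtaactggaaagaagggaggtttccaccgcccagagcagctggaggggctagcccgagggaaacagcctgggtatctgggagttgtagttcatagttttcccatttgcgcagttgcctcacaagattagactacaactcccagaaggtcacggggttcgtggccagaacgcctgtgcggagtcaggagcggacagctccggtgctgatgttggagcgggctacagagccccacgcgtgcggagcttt
Rab3a: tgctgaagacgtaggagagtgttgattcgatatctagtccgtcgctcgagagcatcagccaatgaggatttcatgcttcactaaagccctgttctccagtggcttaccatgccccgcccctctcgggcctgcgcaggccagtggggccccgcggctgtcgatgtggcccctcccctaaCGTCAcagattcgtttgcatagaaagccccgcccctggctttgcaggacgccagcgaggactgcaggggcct
The Rab3a window holds TGACG, read on the opposite strand as CGTCA, and the Rab3c window holds none of the motifs.

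Among the Rabs assigned here to the early endosome, the first station of internalised cargo, 3 of 8 tested genes rose and 0 fell. Over all genes 11.2% rose and 21.8% fell with the deposited scaling. The median log2 difference of the tested genes was 0.28, and 0.21 with the untested Rab17 included. Rab5a, the regulator of early endosome fusion, read 6272 and 6246 in unstressed and 10066 and 11015 in immobilized arrays. The unstressed pair nearly coincided and both immobilized readings were higher. This was a log2 rise of 0.75 ± 0.12, or 1.68-fold (adjusted p = 0.00513), but a dimmer probe set gave 0.08, and without immobilized 2 the adjusted p was 0.0699. The paralogs Rab5b and Rab5c did not pass, at -0.23 and 0.02, although a dimmer probe set of Rab5b fell by 0.94 on the log2 scale (adjusted p = 0.00877).

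Rab20, an endosome and phagosome Rab, read 2206 and 2486 against 3619 and 4839. Both immobilized readings were higher, with a log2 difference of 0.83 ± 0.19 (adjusted p = 0.0168), which was lost without immobilized 2 (0.62, adjusted p = 0.147). Its 3 probe sets ranged from -0.19 to 0.83. Rab31, which acts between the trans-Golgi network and endosomes, read 5341 and 5282 against 7794 and 6861, again higher on both immobilized arrays. The log2 difference was 0.46 ± 0.13 (adjusted p = 0.035), against -0.32 for its dimmer probe set, and the call was lost without immobilized 1 (adjusted p = 0.226) and without immobilized 2 (adjusted p = 0.114). With the mean of each gene's probe sets in place of the brightest, the calls on Rab5a (0.42, adjusted p = 0.107), Rab20 (0.32, adjusted p = 0.226) and Rab31 (0.07, adjusted p = 0.825) were lost. Rab21, at 0.34, did not pass and was also higher on both immobilized arrays. The brightest probe set of Rab22a had 0.21 and did not pass, and its dimmer probe sets, at -0.40 and -0.47, were lower on both immobilized arrays and did not pass either, while Rab24 had -0.15. Rab17, an epithelial endosome Rab, was too dim to be tested, reading 523 and 491 against 205 and 249. Its log2 difference of -1.11 is outside the count of tested genes. In the limma fit with no filter its adjusted p was 0.0668.

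The recycling endosome, which returns cargo to the surface, had 1 rise and 1 fall among 7 tested genes. These are 14.3% each, against 11.2% and 21.8% of all genes. Rab35, which acts in fast recycling, read 3250 and 3902 on the unstressed and 6748 and 6914 on the immobilized arrays. The immobilized pair was close together and far above the unstressed one. This was a log2 rise of 0.94 ± 0.14, or 1.91-fold (adjusted p = 0.00427). It stayed between 0.92 and 0.95 with either immobilized array left out, but the adjusted p was then 0.0553 without immobilized 1 and 0.066 without immobilized 2.

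Rab11b read 20799 and 21844 without stress, then 16826 and 15302, lower on both immobilized arrays. Its log2 difference of -0.41 ± 0.12 was close to the threshold (adjusted p = 0.0459). It lost the call with any array left out (adjusted p from 0.0768 to 0.169) and after median centring (-0.27, adjusted p = 0.174). Its paralog Rab11a read 19480 and 19701 against 20384 and 20438, a difference of 0.06 ± 0.12 that did not pass (95% interval -0.22 to 0.34). Rab14, at -0.54 (adjusted p = 0.0616), passed after quantile normalization (-0.69, adjusted p = 0.0239) and without unstressed 2 (-0.75, adjusted p = 0.014), while its 4 tested probe sets spanned -0.54 to 0.24. Rab15, Rab4b and Rab4a had 0.40, 0.09 and -0.24 and did not pass, although Rab15 did without unstressed 1 (0.84, adjusted p = 0.00279). Rab25, an epithelial Rab, was too dim to be tested, with 1 unstressed reading of 72.6 within the range of the controls.

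Among Rabs assigned to the late endosome and lysosome-related organelles 3 of 6 tested genes fell and 0 rose, with a median of -0.64. Over all genes 21.8% fell and 11.2% rose, with a median of -0.14. Rab9a, which returns mannose 6-phosphate receptors from late endosomes to the Golgi, read 7650 and 9492 against 3023 and 4778. Both immobilized readings were lower, though they differed from each other. The fitted log2 difference of Rab9a was -1.16 ± 0.23, or 2.24-fold lower (adjusted p = 0.0109), and the call was lost without immobilized 1 (-0.83, adjusted p = 0.0668).

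Rab29, a Rab of the trans-Golgi network and lysosomes that binds the kinase Lrrk2, read 8122 and 9617 against 4890 and 5218, lower on both immobilized arrays. Rab29 thus had a log2 difference of -0.81 ± 0.14 (adjusted p = 0.00622). Rab32, which with Rab38 supplies melanosomes and other lysosome-related organelles, read 1718 and 2243 against 1139 and 1104, lower on both immobilized arrays, a difference of -0.80 ± 0.21 (adjusted p = 0.0305). Without immobilized 1 and without immobilized 2 the adjusted p was 0.0682 and 0.0615 for Rab29, and 0.131 and 0.154 for Rab32. Rab32 was also lost without unstressed 2 (adjusted p = 0.0907), after quantile normalization (adjusted p = 0.0582) and after median centring (adjusted p = 0.0596). Rab38 had -0.48 and Rab7b 0.43, and neither passed. Rab7a, the general Rab of late endosomes, read 22503, 22535, 22876 and 22942 on the 4 arrays, a difference of 0.02 ± 0.12 (95% interval -0.26 to 0.31). Rab9b was too dim to be tested.

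Of 11 tested Rabs assigned to the endoplasmic reticulum and Golgi, 2 fell and 0 rose, with a median of -0.19. The falls are 18.2% of the 11, against 21.8% of all genes, of which 11.2% rose. Rab33a, which resembles the Golgi protein Rab33b and is known from brain and immune cells, read 8113 and 8910 in unstressed and 4142 and 3792 in immobilized arrays. All 4 readings were close to their group's mean, and the groups were far apart. The log2 difference was -1.10 ± 0.13, or 2.14-fold lower (95% interval -1.41 to -0.79, adjusted p = 0.00171). Rab33b had -0.53 (adjusted p = 0.0594), and passed without unstressed 2 (-0.66, adjusted p = 0.0195).

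Rab1b, which acts between the endoplasmic reticulum and the Golgi, read 9229 and 10276 against 7071 and 6520, lower on both immobilized arrays. The log2 difference of -0.52 ± 0.13 passed (adjusted p = 0.0221), but its 4 probe sets ranged from -0.52 to 0.24. The call was lost without immobilized 1 (adjusted p = 0.0928), without immobilized 2 (adjusted p = 0.153), after median centring (-0.38, adjusted p = 0.0842) and with the mean of its probe sets (-0.25, adjusted p = 0.131). Rab1a and Rab1b are close paralogs, and 3 further probe sets that name both genes were left out, so signal may be shared between them. Rab1a itself read 32344 and 33598 against 34192 and 29187, with overlapping groups and a difference of -0.06 ± 0.14.

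Rab2a, another Rab of early secretory traffic, read 25767 and 27483 against 26649 and 22633, also overlapping, at -0.12 ± 0.14. Rab6a, of the Golgi and of vesicles leaving it, had 0.35 (adjusted p = 0.0751) and passed after median centring (0.49, adjusted p = 0.0351). Rab34 had -0.38 (adjusted p = 0.0545) and passed after quantile normalization (-0.40, adjusted p = 0.0467) and with the filter at the 60th percentile (adjusted p = 0.0434). The other 4 tested genes of this role, Rab18, Rab2b, Rab36 and Rab6b, did not pass and ranged from -0.67 to 0.25. Rab19, Rab30, Rab39a and Rab43 were too dim to be tested, and all 4 readings of Rab39a lay within the range of the controls.

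Of 5 Rabs assigned to traffic from the Golgi to the surface, 1 rose and 0 fell, where 11.2% of all genes rose and 21.8% fell. Rab8b read 3453 and 3325 against 4372 and 4890, higher on both immobilized arrays, and the log2 difference was 0.45 ± 0.14 (adjusted p = 0.0492). Its dimmer probe sets gave 0.53 and 0.85, but the call was lost without unstressed 2 (adjusted p = 0.0726), immobilized 1 (adjusted p = 0.148) or immobilized 2 (adjusted p = 0.285). Rab8a read 9408, 9875, 10037 and 9494, a difference of 0.02 ± 0.12. Rab10, Rab12 and Rab13 had -0.11, -0.24 and -0.44 and did not pass, although Rab13 did without unstressed 1 (-0.63, adjusted p = 0.0238).

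Among the 4 remaining Rabs, Rab23, an inhibitor of Hedgehog signalling, read 1219 and 1088 against 514 and 571, lower on both immobilized arrays. Rab23 had a log2 difference of -1.07 ± 0.22, or 2.09-fold lower (adjusted p = 0.0127). A dimmer probe set below the filter read 759 and 805 against 225 and 88.2. The call was lost without immobilized 1 (adjusted p = 0.0935) and without immobilized 2 (adjusted p = 0.0792). Rab40c had -0.57 (adjusted p = 0.0564) and Rab40b and Rab28 had -0.23 and -0.13; none of these passed.

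**Figure D2:**
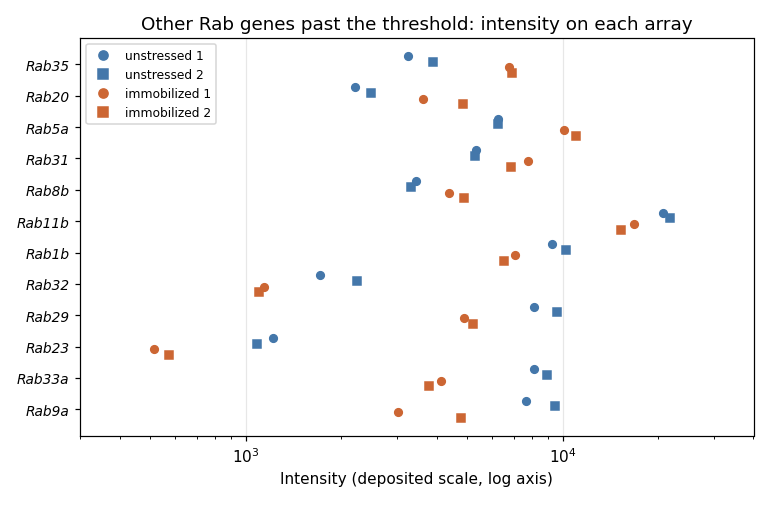
Intensity on each array (log axis) of the 12 Rab genes outside the secretory group that passed the threshold, ordered by log2 difference, with symbols for the arrays as in the legend. In all 12 the unstressed and immobilized arrays do not overlap, as in 69.7% of all tested genes. The 12 were picked by the threshold on these same arrays, and 5 are higher and 7 lower after immobilization.

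Outside the secretory group, 5 of 41 tested Rab genes rose and 7 fell, which is 29.3%, near the background, and the median log2 difference was -0.13. The secretory group had 3 of 5 tested genes past the threshold and a median of -0.08. With 5 tested genes this share is no basis for setting the group apart, and the difference between the groups was not tested. After centring each array on its median, which moves the median of all tested probe sets from -0.12 to 0.02, the medians of the other and the secretory Rabs both turned positive, to 0.0076 and 0.06. The secretory median was 0.22 without unstressed 1 and -0.39 without unstressed 2, so a single array set its sign. With all arrays that median is the value of the middle gene, Rab27a (-0.08). Rab3a, Rab3d, Rab3b and Rab3c had -0.77, -0.55, 0.60 and 1.60. With the deposited scaling, 11.2% of all genes rose and 21.8% fell. By role, early endosome Rabs had 3 rises of 8 tested genes and late endosome Rabs 3 falls of 6. These are small counts, the difference between the roles was not tested, and the 3 early endosome rises were lost with averaged probe sets. A dimmer probe set of the early endosome gene Rab5b fell, and Rab5b itself was called lower after quantile normalization (-0.36, adjusted p = 0.032).

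**Figure D3:**
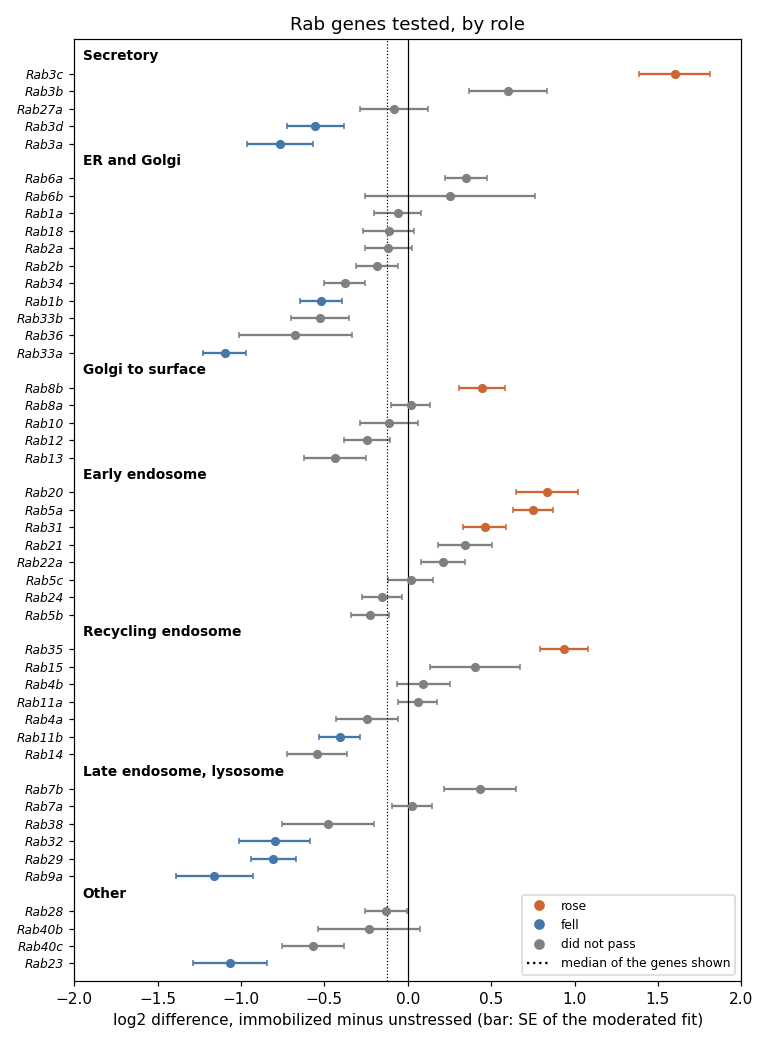
Log2 difference, immobilized minus unstressed, of the 46 tested Rab genes by role, with the SE of the moderated fit as bars. The genes run from -1.16 for Rab9a to 1.6 for Rab3c around a median of -0.12 (dotted), with 6 rises in orange, 9 falls in blue and the genes that did not pass in grey.

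Probe sets of the same gene did not always move together, which limits what can be said of single members. Of 20 Rab genes with more than 1 tested probe set, 12 had all of them on 1 side of 0 and 8 had them on both sides. Rab3a, Rab8b and Rab11b were among the called genes whose probe sets all lay on the same side, whereas Rab1b, Rab20 and Rab31 had a probe set on the other side. Over all 76 tested probe sets of Rab genes 6 rose and 11 fell, against 11.7% and 19.4% of all tested probe sets, or 31.1% in either direction. Rab3c, Rab3d, Rab9a, Rab29, Rab32, Rab33a and Rab35 had only 1 probe set, so no second measurement of them exists on these arrays.

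**Figure D4:**
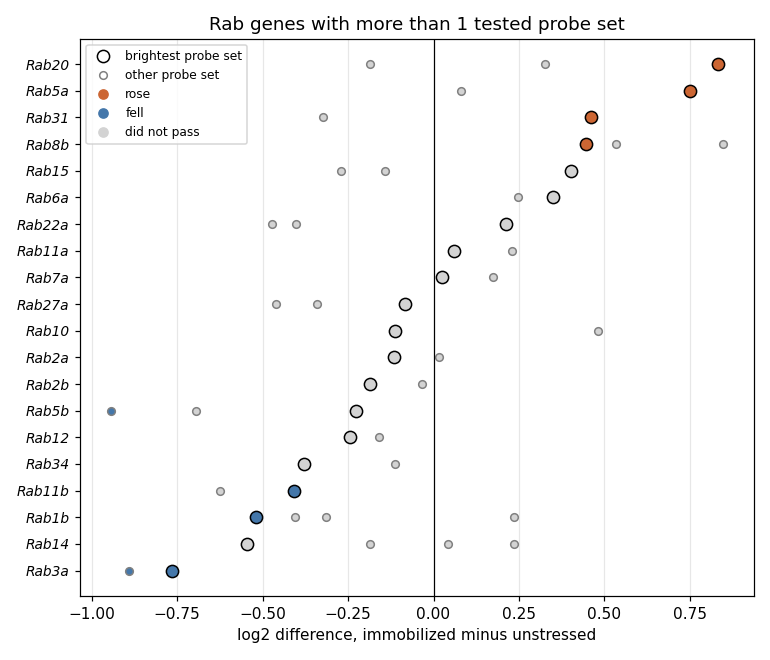
Log2 difference of every tested probe set of the 20 Rab genes with more than 1, the brightest drawn larger with a black edge, and calls coloured as in the legend. The 2 probe sets of Rab3a both fell, while those of Rab20 run from -0.19 to 0.83 and those of Rab1b from -0.52 to 0.24.

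Promoter windows from RefSeq (GRCr8), 250 bases before to 50 after the start, were matched to 45 of the 56 Rab genes and searched on both strands. The motifs were the cAMP response element TGACGTCA and its short form TGACG, which the full site contains, the AP-1 site TGACTCA, the Egr site GCGGGGGCG, the Nr4a site AAAGGTCA and the E-box CACGTG. They were chosen after the values were known, so the counts are a description. None of the 6 Rab genes that rose held any of the first 5 motifs in this window. Of all 33469 windows 1.83% held TGACGTCA, 21.2% TGACG, 4.63% TGACTCA, 2.73% GCGGGGGCG and 1.43% AAAGGTCA. Among the 6 falling genes with a window, Rab3a and Rab29 held TGACG, Rab9a held TGACTCA and Rab3d held GCGGGGGCG. These motifs were not particular to falling genes. TGACG occurred in 16 of the 45 Rab genes, among them 10 of the 25 that were tested and not called. TGACTCA occurred in 4 of the 45, among them 2 of those 25. AAAGGTCA occurred in no Rab window.

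The E-box CACGTG occurred in 6.42% of all windows and in 4 of the 45 Rab windows, all 4 of them of early endosome Rabs, Rab5a, Rab20, Rab31 and Rab21. Of the 7 early endosome Rabs with a window 4 held it, against 0 of the other 38 Rab genes. The first 3 are the early endosome genes that rose, and Rab21 did not pass. Those 3 calls were lost with averaged probe sets. Roles and motifs were both chosen with results of these data known, so this split is a description and was not tested. The median GC content of the 250 upstream bases was 62.6% in Rab windows and 51.2% in all windows. The lines below give 30 bases before and 10 after the E-box, which is in capitals, on the gene's strand, because these are the letters that set the 4 genes apart in the search. The windows are chr9:6720893-6720938 on the plus strand for Rab5a, chr16:84721392-84721437 on the plus strand for Rab20, chr9:112828143-112828188 on the minus strand for Rab31 and chr7:52814980-52815025 on the minus strand for Rab21.
Rab5a: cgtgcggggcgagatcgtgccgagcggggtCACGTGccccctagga
Rab20: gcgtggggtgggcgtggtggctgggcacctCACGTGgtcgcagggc
Rab31: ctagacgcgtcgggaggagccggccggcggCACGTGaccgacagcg
Rab21: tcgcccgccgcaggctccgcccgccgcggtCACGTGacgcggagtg

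The proteins that act on Rabs were followed in lists of exchange factors, GTPase-activating proteins, effectors and the machinery that lipidates and recycles Rabs. Of 96 tested genes 10 rose and 24 fell, which is 35.4%, near the background of 33.0%, with a median of -0.15 against -0.14 for all genes. After median centring, 15 rose and 15 fell.

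Of 7 tested effectors of exocytosis, 2 rose and 1 fell, where 11.2% of all genes rose and 21.8% fell. Myrip and Mlph, which both tie Rab27-bearing granules to myosin motors, rose by 0.90 ± 0.18 and 0.89 ± 0.25 on the log2 scale (adjusted p = 0.0112 and 0.0346). Sytl2, a tandem C2-domain effector of Rab27, read 2635 and 3091 against 1327 and 1423, a log2 difference of -1.05 ± 0.18 (adjusted p = 0.00677). These 3 calls were lost without immobilized 1 (adjusted p = 0.109, 0.208 and 0.0647 for Myrip, Mlph and Sytl2) and without immobilized 2 (adjusted p = 0.0768, 0.0994 and 0.0601), and that on Mlph also without unstressed 2 (adjusted p = 0.0717). Effectors of Rab27 thus moved both ways while the brightest Rab27a probe set had -0.08. Rph3al, an effector of Rab3 and Rab27, had -0.37 and did not pass, and Rims1, Rims2 and Rph3a were too dim to be tested.

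Of 26 tested exchange factors 3 rose and 5 fell, or 11.5% and 19.2%, near the 11.2% and 21.8% of all genes. Hps4 read 1076 and 1104 without stress and 5096 and 4867 with it, and its log2 rise of 2.18 ± 0.16, or 4.52-fold (adjusted p = 0.00031), was the largest among the 96. Hps1 forms with Hps4 the complex that loads Rab32 and Rab38. It went the other way, with 5767 and 5976 against 2460 and 2743, at -1.17 ± 0.14 (adjusted p = 0.00173), and was singled out after its value was seen. Rab32 itself fell and Rab38 did not pass. Rin2, an exchange factor for Rab5, read 6139 and 6107 against 1993 and 1948, a difference of -1.63 ± 0.14 (adjusted p = 0.000515). The calls on Hps4, Hps1 and Rin2 were kept with each array left out. Rabgef1, another exchange factor for Rab5, went the other way from Rin2 and rose by 0.62 ± 0.18 (adjusted p = 0.0407), a call lost without unstressed 1 (0.0524), immobilized 1 (0.117) or immobilized 2 (0.232) and with averaged probe sets (0.071). Dennd2a, an exchange factor for Rab9, rose by 1.29 ± 0.24, and the call was lost without immobilized 1 (adjusted p = 0.0673) and without immobilized 2 (adjusted p = 0.0954). The unstressed readings of Dennd2a, 466 and 375, were under 544, the level of the filter. Dennd2a thus entered the test only through its immobilized readings. Dennd6a, which acts on Rab14, had -1.18 ± 0.16 (adjusted p = 0.0026). Its second probe set gave 0.51 and the call was lost with the mean of both (-0.33, adjusted p = 0.14). Madd, an exchange factor for Rab3 and Rab27, had -0.08 ± 0.17 and did not pass.

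Of 31 tested GTPase-activating proteins and relatives, 3 rose and 8 fell, or 9.7% and 25.8%, beside 11.2% and 21.8% of all genes. Tbc1d16, which acts on Rab4a, rose by 1.26 ± 0.25 on the log2 scale and Tbc1d8 by 0.93 ± 0.14. Tbc1d13, which acts on Rab35, had -0.95 ± 0.15 and Tbc1d7, a subunit of the tuberous sclerosis complex, -1.50 ± 0.22. The immobilized readings of Tbc1d7, 457 and 397, were under 544, the level of the filter. Tbc1d7 thus entered the test only through its unstressed readings. The calls on Tbc1d16 and Tbc1d8 were lost without immobilized 1 (adjusted p = 0.0897 and 0.0553) and without immobilized 2 (0.0825 and 0.0572), and those on Tbc1d13 and Tbc1d7 without immobilized 2 (0.0683 and 0.0514). With the mean of its probe sets Tbc1d8 had 0.10 (adjusted p = 0.766). Rab3gap2, a subunit of the Rab3 GTPase-activating complex, rose by 0.59 ± 0.15 (adjusted p = 0.0243). Its call was lost without unstressed 1 (adjusted p = 0.0526), immobilized 1 (0.0787) or immobilized 2 (0.173), and its partner Rab3gap1 had 0.19 and did not pass.

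Of 26 tested effectors of endosomes and the Golgi 2 rose and 9 fell, or 7.7% and 34.6%, beside 11.2% and 21.8% of all genes. The lists were not tested against all genes. Rabep2, a Rab5 effector, read 1430 and 2112 against 444 and 410, a difference of -1.99 ± 0.26 (adjusted p = 0.0025), kept with each array left out. Both immobilized readings of Rabep2 were under 544, the level of the filter, so Rabep2 entered the test only through its unstressed readings. Appl2, also a Rab5 effector, had -1.21 ± 0.23, Optn, an effector of Rab8, -1.03 ± 0.16 and Rab11fip5, an adaptor of Rab11, -0.86 ± 0.22. The call on Appl2 was lost without immobilized 1 (adjusted p = 0.0861) and immobilized 2 (0.087), that on Optn without immobilized 1 (0.056) and that on Rab11fip5 without immobilized 2 (0.154). Eea1 and Rabep1, further Rab5 effectors, had 0.39 and 0.43 and did not pass. Of 6 genes for the dissociation inhibitor, escort and prenylation machinery 1 fell, Rabggta, a subunit of Rab geranylgeranyl transferase, at -0.77 ± 0.21. That call was lost without unstressed 2 (adjusted p = 0.0907), immobilized 1 (0.161) or immobilized 2 (0.135), after quantile normalization (0.0652) and after median centring (0.0693). Gdi2, which keeps Rabs soluble, had 0.0 ± 0.13.

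**Figure D5:**
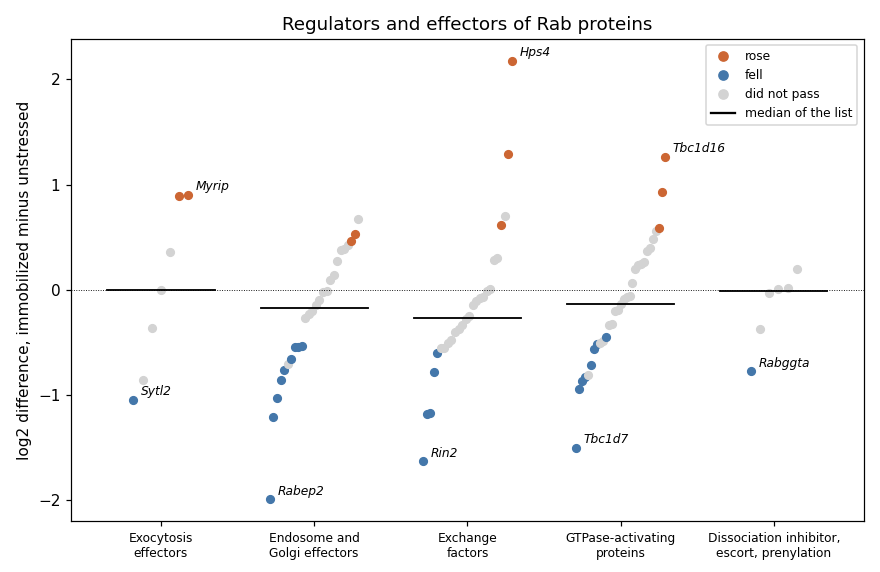
Log2 difference, immobilized minus unstressed, of the 96 tested regulators and effectors in 5 lists, ordered by value within a list, with rises in orange, falls in blue and the list's median as a black line. Hps4 stands highest at 2.18 and Rabep2 lowest at -1.99, and the medians lie between -0.26 and -0.0033.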

How the data were processed

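The authors deposited a linear intensity for each probe set on each array. The sources used here do not give how probes were summarised into these intensity values. The columns share a trimmed mean (2501, 2% left out at each end), so no further normalization was applied. There were 0 unused sample columns. After 57 control probe sets were left out, 31042 remained. Values were turned into log2(intensity + 16), so fold changes are on that scale and understate changes of dim genes. The 12417 probe sets with a mean under the 40th percentile, or 544 in intensity, stayed out of the test, leaving 18625. Of the probe sets 20826 name 1 gene, 436 several and 9780 none. All 56 Rab genes were found under the same symbol in a gene table of the GRCr8 assembly.

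The comparison used limma 3.58.1 under R 4.3.3, through lmFit and then eBayes with its trend option, as a two-sided test with Benjamini-Hochberg adjustment over the 18625. An exact permutation test of 2 against 2 arrays cannot give a p below 0.33 and was not used. In data simulated from the means of these 18625 probe sets, 100 were changed 2-fold and 100 were changed 4-fold. Of these, 24 and 91 were recovered, with 13 false calls among 128. The measured data had 5799 calls. The adjustment is stricter where fewer probe sets change, so these shares do not give the sensitivity of the test in the measured data. The simulated noise is independent between probe sets, unlike errors shared on an array.

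The Rab genes, their roles and the lists of regulators, effectors and cell type markers were chosen with earlier results of these data known. Values on each array are given for the secretory Rabs, for the 12 other Rab genes past the threshold and for the 5 brightest; regulators named are up to 4 called genes of a list with the largest change, and others named as examples were chosen after their values were seen. Intensities of different genes are not compared. Alternatives were quantile normalization, median centring, offsets of 1 and 64, no filter, a filter at the 60th percentile, no trend, robust estimation, each array left out, a threshold of 0.10, averaged probe sets and 1 probe set per gene in the adjustment. With an array left out, the spread comes from the other group's pair alone. Plots were drawn with matplotlib 3.10.9.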

Additional observations from a re-analysis of the deposited data

How the results depend on the processing

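Counts of calls depended most on which array was left out. Over the 4 omissions the called probe sets numbered 1678 to 6438 (5799 with all arrays), the Rab rises 1 to 8 and falls 1 to 8, and the rises of regulators and effectors 1 to 13 and their falls 5 to 27; the low ends came with an immobilized array left out, where the spread rests on the unstressed pair. The median of the secretory Rabs ran from -0.39 to 0.22 and that of the others from -0.18 to -0.088. After median centring 5 Rab genes fell, 15 regulators and effectors fell, and the medians were 0.057 for secretory and 0.0076 for other Rabs; after quantile normalization the median of the other Rabs was -0.21. With probe sets averaged by gene 3 Rab genes rose and 3295 genes were called, and with 1 probe set per gene in the adjustment 3481 were called; both test fewer features. Offsets of 1 and 64 left every count of Rab calls as it was. Of the 15 called Rab genes, 2 kept the call under every alternative that was run, Rab3c and Rab33a. The cause of these differences between settings was not tested.

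Some Rab genes that did not pass changed sign. Under median centring Rab27a had 0.057, Rab18 0.024, Rab1a 0.078, Rab2a 0.024, Rab10 0.028 and Rab28 0.0076. Under quantile normalization Rab8a had -0.039, Rab11a -0.095 and Rab7a -0.13, and with the mean of probe sets Rab10 had 0.18, Rab22a -0.22 and Rab15 -0.0034. With an array left out, Rab27a ran from -0.39 to 0.22, Rab18 from -0.29 to 0.064, Rab1a from -0.18 to 0.053, Rab2a from -0.23 to 0.0020, Rab6b from -0.47 to 0.97, Rab10 from -0.34 to 0.12, Rab8a from -0.022 to 0.058, Rab5c from -0.066 to 0.099, Rab15 from -0.032 to 0.84 and Rab40b from -0.66 to 0.19. Beside the gains named in the report, Rab2a and Rab5b passed after quantile normalization (adjusted p = 0.0468 and 0.032), Rab40c without the trend and with averaged probe sets (0.0497 and 0.0362) and Rab33b with averaged probe sets (0.0472). No called Rab gene changed sign under these alternatives. No paired analysis was possible because the labels give no replicate number that ties an unstressed array to an immobilized one. In simulated data 24 of 100 changes of 2-fold were called. Far fewer probe sets were changed there than were called here, so this share is not the sensitivity in the measured data. Smaller changes were not simulated.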

Other observations

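Several genes of the Rab pathway were too dim on average to enter the test although their groups lay far apart; they were picked after their values were seen. Rab11fip2, an adaptor of Rab11, read 862 and 375 without stress and 39.5 and 25.5 after immobilization. Exph5, an effector of Rab27, read 766 and 463 against 40.2 and 71.4. Dennd2d, an exchange factor, read 378 and 329 against 43.6 and 38.3, and Unc13b, a priming factor of vesicle release, 535 and 395 against 120 and 158. All unstressed readings of these 4 genes lay above 257, the highest Bacillus control of the 4 arrays. All immobilized readings lay within the range of those controls over the 4 arrays, so the size of the differences is not known. The reading of 158 for Unc13b on immobilized 2 was above that array's own highest control, 145. In the fit with no filter on dim probe sets their adjusted p was 0.0068, 0.00722, 0.00735 and 0.0323.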
